A study of Homo sapiens with 6 samples.

Results

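Amino acid transporter genes were followed in HepG2 cells on 6 one-colour arrays from Agilent. HepG2 is a line from a human liver tumour that keeps many features of hepatocytes. The members were chosen by the gene name in the scanner files, with earlier results of these data known. The names started with SLC1A, SLC3A, SLC6A, SLC7A, SLC36A, SLC38A or SLC43A, and SLC7A11 was left out. This gave 55 genes on 84 probes, of 17034 named genes with a usable probe. Control cells gave the RNA for 1 array, and the other 5 held RNA of cells exposed to a preparation of the medicinal plant Scutellaria baicalensis for 1, 3, 6, 12 or 24 h, at 100 µg/ml. What the control cells received in place of the plant preparation, and for how long, is not given in the sources used here. The series asks how expression depends on the time of exposure. Each group held 1 array, so differences at single times carry no p-values.

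Amino acids cross the plasma membrane through carriers with overlapping substrates, and a cell's supply depends on several of them working together. The SLC38A, SLC1A and part of the SLC6A carriers pull neutral or acidic amino acids into the cell with sodium. The SLC7A light chains pair with a heavy chain of the SLC3A family and exchange one amino acid for another, so that glutamine or other cytosolic amino acids leave as leucine and its relatives enter. SLC36A carriers are coupled to protons, and SLC43A carriers let large neutral amino acids pass by facilitated diffusion. In liver cells this traffic feeds protein synthesis, the urea cycle and the kinase complex mTORC1, which senses amino acids.

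Values are log2 of the processed signal minus log2 of the array's 75th percentile, called the scaled signal. Differences are the scaled signal of a treated array minus that of the control array, on the log2 scale. The error after ± is an SD for one probe's difference, taken from how far paired probes of 2892 to 4544 genes lay apart. It was 0.37, 0.47, 0.78, 0.68 and 0.69 at the 5 times in order. Because paired probes share their arrays, variation from one culture or array to another is not in it. A gene is called measured at a time when its brightest probe was well above background both there and on the control array. The 75th percentile of the signal ran from 153 units at 6 h and 420 at 12 h to between 768 and 1900 on the other arrays. All 10 hepatocyte and hepatoma markers were well above background on all 6 arrays. Of the 18 markers on the array for blood, fibroblast, endothelial and neuronal cells, 3 were at 6 h and 7 to 9 on the other arrays. The latter included CD79A, VWF and SYN1 on all 6 arrays and PDGFRB on 5, while COL1A1 and COL3A1 were well above background on none. The part of such markers in the results was not tested.

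Of the 55 members, 26 were well above background on all 6 arrays, 14 on 3 to 5, 3 on 1 or 2 and 12 on none. The silent ones included the dopamine carrier SLC6A3, the glutamate carriers SLC1A1 and SLC1A6, and the cationic carrier SLC7A3. Also silent were SLC36A2, SLC6A7, SLC6A15, SLC6A17, SLC6A20, SLC7A13 and SLC7A14. Here silent means not well above background, which is an upper limit and not an absence. SLC6A20 had a lesser probe that was well above background at 24 h. The SLC38A family was the most fully measured, with 5 of 6 genes on all arrays and the remaining gene on 3. On the control array 41 members were well above background, at 6 h 26 and at 12 h 36. Among all genes the share was 78% on the control array and 62.6% at 6 h. Members included the pseudogene SLC6A10P, and SLC7A6OS, which is named for its place opposite SLC7A6 and is not a carrier.

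The heavy chain SLC3A2 and the light chain SLC7A5 form the main exchanger for leucine and other large neutral amino acids, and each was read by 2 probes that disagreed. The first 30 bases of each 60-base probe, in lower case with no base singled out, show that the 2 probes of a gene read different stretches of its transcript.
SLC7A5 brightest probe: tttcagtcgttgtgcttttttgttttgtgc
SLC7A5 other probe: cgtctacttcttcggggtctggtggaaaaa
SLC3A2 brightest probe: ccttcccaggccctttggcttctgattttt
SLC3A2 other probe: atcctgagcctactcgaatccaacaaagac

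The brightest SLC7A5 probe had a scaled signal of 4.16 on the control array. On the treated arrays, from 1 h to 24 h, it was 4.09, 3.58, 3.06, 3.51 and 3.75. It was lowest at 6 h, by -1.09 ± 0.78, and below the control on each treated array. The other SLC7A5 probe, which lay 3418 bases of genome upstream, had -1.86 on the control array and -1.56, -1.77, -1.65, -0.87 and -1.79 on the treated arrays. It was above the control on each of them, most at 12 h by 0.99 ± 0.68. The 2 probes of SLC7A5 thus had opposite signs at each of the 5 times. The difference at 6 h ranged from -2.34 to -0.44 over the processing alternatives, the smallest being the mean over probes.

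The brightest SLC3A2 probe stayed near its control level, with a scaled signal of 4.58 on the control array and 4.47, 4.17, 4.14, 4.56 and 4.65 on the treated arrays. Its differences lay between -0.45 at 6 h and 0.06 at 24 h, inside the error at each time. The other SLC3A2 probe, 3513 bases upstream, had 0.67 on the control array and 1.51, 1.92, 0.44, 1.38 and 2.65 on the treated arrays. That probe was higher by 1.25 ± 0.47 at 3 h and, at its highest, by 1.98 ± 0.69 at 24 h. At 6 h it lay at -0.23. At 24 h the probes of SLC3A2 were 1.92 apart. Neither gene can therefore be given a single direction, and the cause of the disagreement between probes was not tested.

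**Figure D1:**
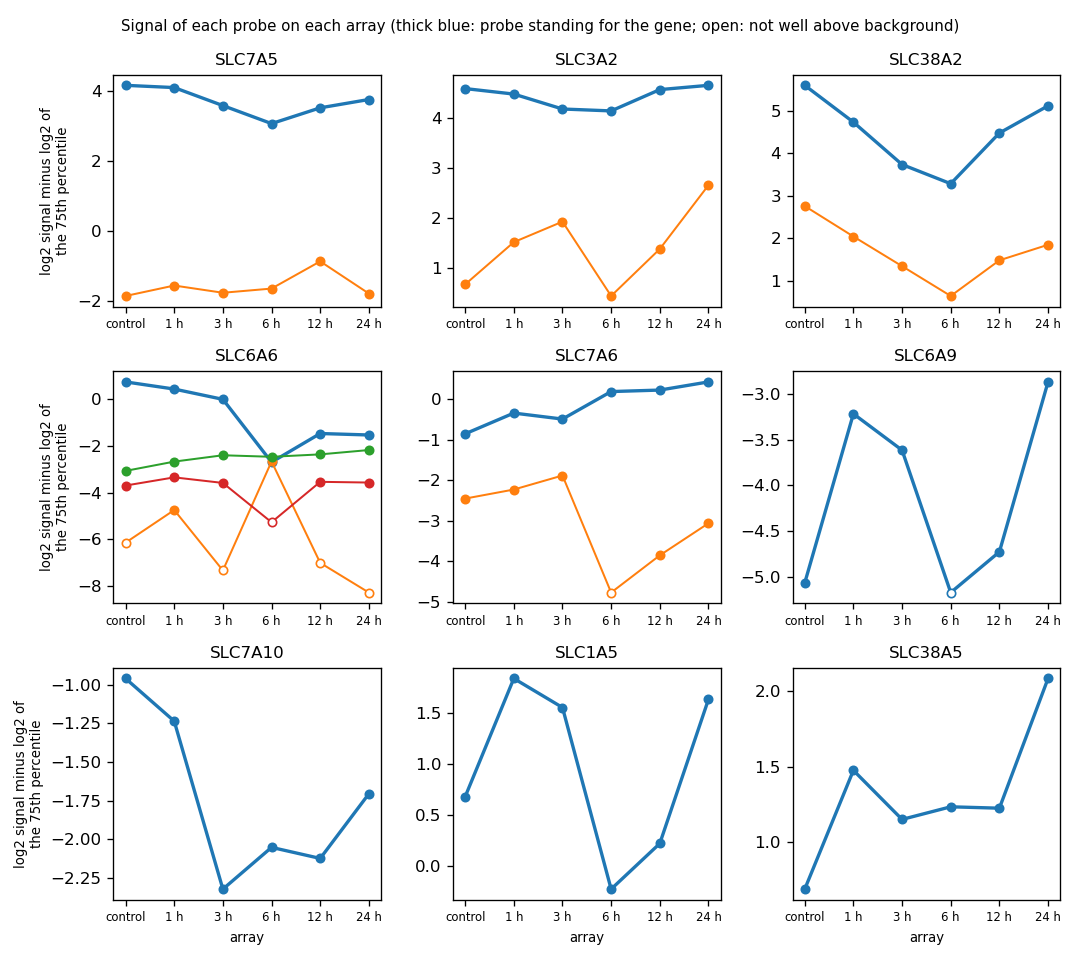
Scaled signal (log2 signal minus log2 of the 75th percentile, vertical axis) of every probe of 9 genes on the 6 arrays (horizontal axis), with 1 array per point. The thick blue line is the probe that stands for the gene and open points were not well above background; both SLC38A2 probes are lowest at 6 h, while the probes of SLC7A5, SLC3A2 and SLC6A6 part from each other.

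SLC38A2, a sodium-coupled carrier of small neutral amino acids such as alanine and glutamine, was lower than the control by both of its probes from 1 h to 12 h. Its brightest probe had a scaled signal of 5.60 on the control array, followed from 1 h to 24 h by 4.73, 3.74, 3.28, 4.48 and 5.12. The signal was lower at each later time up to 6 h and higher again at 12 h. The 24 h spot was saturated, so its value is a lower limit and has no rank against the control. The differences were -0.87 ± 0.37, -1.87 ± 0.47, -2.32 ± 0.78, -1.12 ± 0.68 and, from the saturated spot, -0.48. The other SLC38A2 probe, 1915 bases upstream, gave -0.72, -1.42, -2.12, -1.28 and -0.91. The same sign at all 5 times was found for 1 of the 7 members with a pair of probes measured on all 6 arrays, which was SLC38A2, with the saturated spot taken at its value. At 6 h the gene's difference ranged from -3.58 to -2.22 over the alternatives, and at 3 h from -1.87 to -1.64. In fold terms, after scaling, the control signal was 3.65 times the 3 h signal and 4.99 times the 6 h signal. The array cannot tell fewer RNA-bearing cells of a kind from less RNA per cell.

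The 30-base starts of the 2 SLC38A2 probes, both in lower case, are shown because this is the pair that gave one course.
SLC38A2 brightest probe: aggttcaaaatcaagtgcctagggaaaatt
SLC38A2 other probe: acaaaaccacgagtctcgggttaagggaag

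Other sodium-coupled carriers of the SLC38A family followed separate courses. SLC38A1, a glutamine carrier, was lower by -1.66 ± 0.78 at 6 h and lay between -0.49 and 0.11 at the other times. SLC38A5, a carrier of glutamine, histidine and other neutral amino acids, was above the control at every time, by 0.78 ± 0.37 at 1 h, between 0.46 and 0.54 from 3 h to 12 h, and 1.39 ± 0.69 at 24 h. SLC38A3, which carries glutamine in hepatocytes, was higher by 0.88 ± 0.37 at 1 h and lower by -0.63 at 12 h, and its other probe gave 0.94 and -0.61. SLC38A6 stayed between -0.51 and 0.12. The brighter of the dim SLC38A4 probes had a scaled signal of -4.57 on the control array, -5.49 at both 1 h and 3 h, and was not well above background afterwards. After scaling, its control signal was at least 1.55-fold that at 12 h and at least 3.36-fold that at 24 h. The other SLC38A4 probe was well above background at 24 h alone. Before scaling it had 19.4 units there against 4.75 on the control array, or 1.91-fold after scaling. An at-least fold sets the brighter array against the lowest signal among probes well above background on the dimmer array. The probe's own signal is used there if higher.

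SLC7A1, the main carrier of arginine and lysine, also had its lowest value at 6 h. Its scaled signal was 2.42 on the control array and 2.51, 1.95, 0.56, 1.89 and 2.68 on the treated arrays. Only the 6 h array stood apart, by -1.86 ± 0.78, and this difference ranged from -2.07 to -1.86 over the alternatives. The other SLC7A1 probe was too dim to be measured at 6 h.

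SLC7A10, a light chain that carries small neutral amino acids including D-serine, was below the control at every time. Its scaled signal was -0.96 on the control array and -1.24, -2.32, -2.05, -2.12 and -1.71 on the treated arrays. The differences were -1.36 ± 0.47 at 3 h, -1.09 ± 0.78 at 6 h and -1.16 ± 0.68 at 12 h. With normexp background correction the 6 h value became 0.73 and the 12 h value -0.20. The direction of SLC7A10 at 6 h therefore depends on the background correction.

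SLC7A6, a light chain that exchanges cationic for neutral amino acids, was above the control at every time by its brightest probe. Its scaled signal was -0.86 on the control array and -0.35, -0.49, 0.19, 0.22 and 0.42 on the treated arrays. The differences at the 5 times in order were 0.51 ± 0.37, 0.36 ± 0.47, 1.04 ± 0.78, 1.08 ± 0.68 and 1.28 ± 0.69. The other SLC7A6 probe, 1985 bases downstream, gave 0.22 and 0.57 at 1 h and 3 h but -1.40 at 12 h and -0.61 at 24 h, and was at least 2.01-fold lower at 6 h. The mean over probes at 12 h was -0.16, on the other side of the control.

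SLC7A9, the light chain of the cystine and dibasic amino acid exchanger, was at least 2.84-fold lower at 6 h, and between -0.62 and 0.43 elsewhere. Its heavy chain SLC3A1 was higher by 1.97 ± 0.68 at 12 h and at least 1.87-fold lower at 24 h. Before scaling, the 12 h signal of SLC3A1 was 34.2 units against 16 on the control array. SLC7A2, a cationic carrier of liver, was at least 3.17-fold lower at 12 h and lay at -0.28 at 24 h. SLC7A7, which with SLC3A2 carries cationic amino acids, was at least 1.47-fold lower at 12 h and higher by 0.63 at 24 h. SLC7A4 lay between -0.17 and 0.30 where measured. SLC7A6OS had its highest differences at 6 h (0.63) and 12 h (0.90 ± 0.68).

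Among the SLC1A carriers, SLC1A5, which exchanges glutamine and other neutral amino acids, swung both ways. Its scaled signal was 0.68 on the control array and 1.84, 1.55, -0.22, 0.22 and 1.63 on the treated arrays. It was above the control at 1 h by 1.16 ± 0.37, at 3 h by 0.87 ± 0.47 and at 24 h by 0.95 ± 0.69, and below it at 6 h by -0.90 ± 0.78 and at 12 h by -0.46. The dimmer pair of arrays thus held its low values, and the cause was not tested. SLC1A4, a carrier of alanine, serine and cysteine, stayed between -0.18 and 0.48 by its brightest probe, while its other probe was at least 3.2-fold lower at 6 h. SLC1A2, a glutamate carrier, was lower by -0.88 at 6 h by one probe and by -1.99 by the other. SLC1A7, another glutamate carrier, was by its brightest probe below the control at every time, most at 1 h by -0.96 ± 0.37, while its other probe lay above the control there (0.69) and at 3 h (0.43). In the SLC36A and SLC43A families no measured gene reached a 2-fold difference, the widest being -0.85 for SLC36A3 at 24 h. SLC36A1, a proton-coupled carrier of small amino acids, was measured at 3 h (-0.04) and 24 h (-0.61). SLC43A1, a carrier of large neutral amino acids, was higher by 0.79 ± 0.69 at 24 h and SLC36A4 lower by -0.72 ± 0.37 at 1 h.

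In the SLC6A family the taurine carrier SLC6A6 showed the widest difference of any member, by 1 of its 4 probes. That probe had a scaled signal of 0.75 on the control array, followed from 1 h to 24 h by 0.44, 0.00, -2.70, -1.47 and -1.53. The 3 later arrays were low, by -3.44 ± 0.78, -2.21 ± 0.68 and -2.28 ± 0.69. With normexp background the 6 h difference was -0.86, and with the mean over probes the 12 h and 24 h differences were -0.45 and -0.42, all short of 2-fold. Probe 2, 42250 bases of genome upstream, was above the control on each treated array, by 0.40, 0.67, 0.61, 0.71 and 0.90. Probe 3, 2061 bases upstream, lay at 0.16 at 12 h and 0.13 at 24 h and was not well above background at 6 h. Probe 4, too dim on the control array to be measured there, was at least 10.2-fold higher at 6 h, at a signal of 24.1 units before scaling. It was at least 2.4-fold higher at 1 h and not well above background at 3 h, 12 h and 24 h. The start of the brightest probe is shown because it gave the widest difference of any member.
SLC6A6 brightest probe: ccaatccctagcaactgtgactctgtattt

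SLC6A9, a glycine carrier, had the highest difference of any measured member at 1 h, 3 h and 24 h. Its scaled signal was -5.06 in the control. Exposed cells had -3.22, -3.62, -4.72 and -2.87 at 1, 3, 12 and 24 h, while the 6 h spot was not well above background. The differences were 1.84 ± 0.37, 1.45 ± 0.47, 0.34 ± 0.68 and 2.19 ± 0.69, with the smallest at 12 h. The gene was dim, at 23 units before scaling on the control array against 224 at 24 h. With normexp background its differences became 0.72, 0.28 and 0.92 at 1, 3 and 24 h. SLC6A19, the main neutral amino acid carrier of gut and kidney, had differences of 1.10 ± 0.37, 0.64, 1.39 ± 0.78, 0.64 and 0.16. SLC6A18, a related carrier, was higher by 1.14 ± 0.78 at 6 h at a signal of 21.3 units. The brightest probe of the creatine carrier SLC6A8 stayed between -0.33 and 0.47, and its other probe between -0.63 and 0.79. For SLC6A14, a carrier of neutral and cationic amino acids, the brightest probe lay between -0.64 and 0.57. The other SLC6A14 probe was at least 4.06-fold lower at 12 h and at 0.86 at 24 h. The serotonin carrier SLC6A4 was read by 10 spots, whose SD of log2 signal lay between 0.053 and 0.076 on each array. It was higher by 0.70 at 6 h and lower by -0.66 at 24 h, both beyond the spread of its spots and within the error between probes. The remaining measured SLC6A genes (SLC6A2, SLC6A5, SLC6A11, SLC6A12, SLC6A13 and SLC6A16) had differences between -0.79, for SLC6A13 at 24 h, and 0.73, for SLC6A2 at 1 h. SLC6A10P, whose sequence is close to SLC6A8, lay between -0.47 and 0.57. A probe may not tell such near copies apart.

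**Figure D2:**
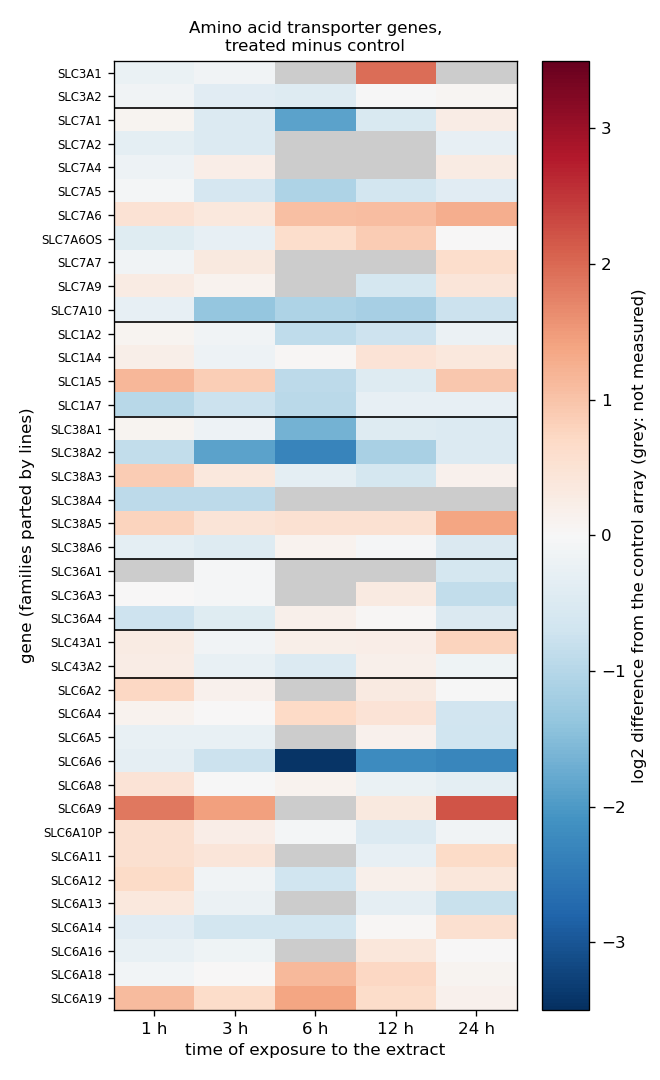
Log2 difference of each treated array from the control array (colour, red higher and blue lower) for the 40 members that 3 or more arrays showed well above background, with time of exposure across and genes down, families parted by lines. Grey cells were not measured; the darkest blue cells are SLC6A6 at 6 h (-3.44) and SLC38A2 at 6 h (-2.32), and the reddest is SLC6A9 at 24 h (2.19).

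Counts of members past 2-fold were read against the same counts over all genes. At 1 h, 3 of the 39 members measured had a 2-fold or larger higher value (SLC1A5, SLC6A19 and SLC6A9), against 2.25% of all genes, and 0 of 39 were lower, against 0.67%. At 3 h, 1 of 41 was higher, against 3.06%, and 2 were lower (SLC38A2 and SLC7A10), against 3.09%. At 6 h, 6 of 26 members were at least 2-fold lower, or 23.1%, against 10% of all genes. These were SLC38A1, SLC38A2, SLC6A6, SLC7A1, SLC7A10 and SLC7A5. In the other direction 3 of 26 were higher at 6 h, or 11.5%, against 23.2% of all genes. At 12 h, 2 of 35 were higher (SLC3A1 and SLC7A6), against 12.6%, and 3 were lower (SLC38A2, SLC6A6 and SLC7A10), against 8.08%. With normexp background 8 members were higher at 12 h, and with the deposited values or the mean over probes 1 was. With normexp the higher counts were also 1 at 1 h, 0 at 3 h and 1 at 6 h. The lower count at 6 h was 5 with normexp, 6 with the mean over probes and 7 with quantile scaling, though not of the same members. SLC7A5 was short of 2-fold with the mean over probes (-0.44) and SLC6A6 with normexp (-0.86). SLC7A10 lay above the control with normexp (0.73). The shares over all genes given here belong to the main processing, so the counts under these alternatives have no such comparison. At 24 h, 3 of 37 were higher (SLC38A5, SLC6A9 and SLC7A6), against 7.01%, and 1 was lower (SLC6A6), against 9.54%. These shares describe 1 array each and carry no test, and apart from 6 h they rest on 3 members or fewer.

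**Figure D3:**
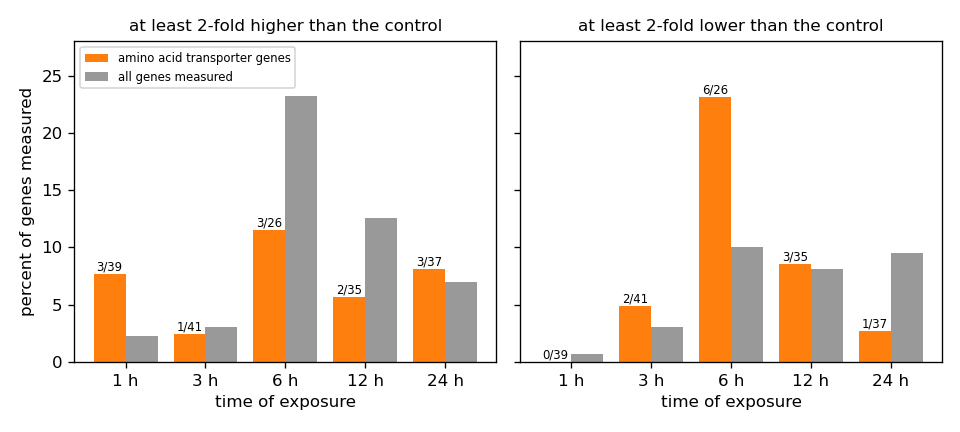
Percent of measured genes at least 2-fold higher (left) or lower (right) than the control (vertical axis) at each time of exposure (horizontal axis), for amino acid transporter genes (orange, with counts) and all genes measured (grey). The lower share of transporter genes at 6 h is 23.1% beside 10% of all genes, and the higher share there is 11.5% beside 23.2%.

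The median difference of the measured members was 0.09, -0.12, -0.39, 0.03 and -0.01 at the 5 times in order. Over all genes it was -0.06, -0.06, 0.36, 0.22 and -0.003. At 6 h 20 of 26 members lay below the median of all genes, at 12 h 22 of 35, and at 24 h 19 of 38. The 6 h array was the dimmest, and the members measured there were the brighter ones. Quartiles of signal on the control array were taken among genes on all 6 arrays and saturated on none, which left out SLC38A2 for its 24 h spot. In the top quartile 8.2% of 2538 genes were at least 2-fold lower at 6 h. Of the 5 members in it, 3 were lower (SLC38A1, SLC7A1 and SLC7A5). In the quartile next below it was 1 of 10 members against 13.6% of genes, in the one below that 1 of 9 against 15.5%, and in the lowest 0 of 1 against 3.53%. By family the median at 6 h was -1.09 for 5 SLC7A genes, -0.89 for 4 SLC1A genes, -0.33 for 5 SLC38A genes and 0.03 for 8 SLC6A genes. In that order 2, 1, 2 and 4 genes of a family lay above the control. The SLC7A genes ran from -1.86 to 1.04 and included SLC7A6OS, which is not a carrier.

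**Figure D4:**
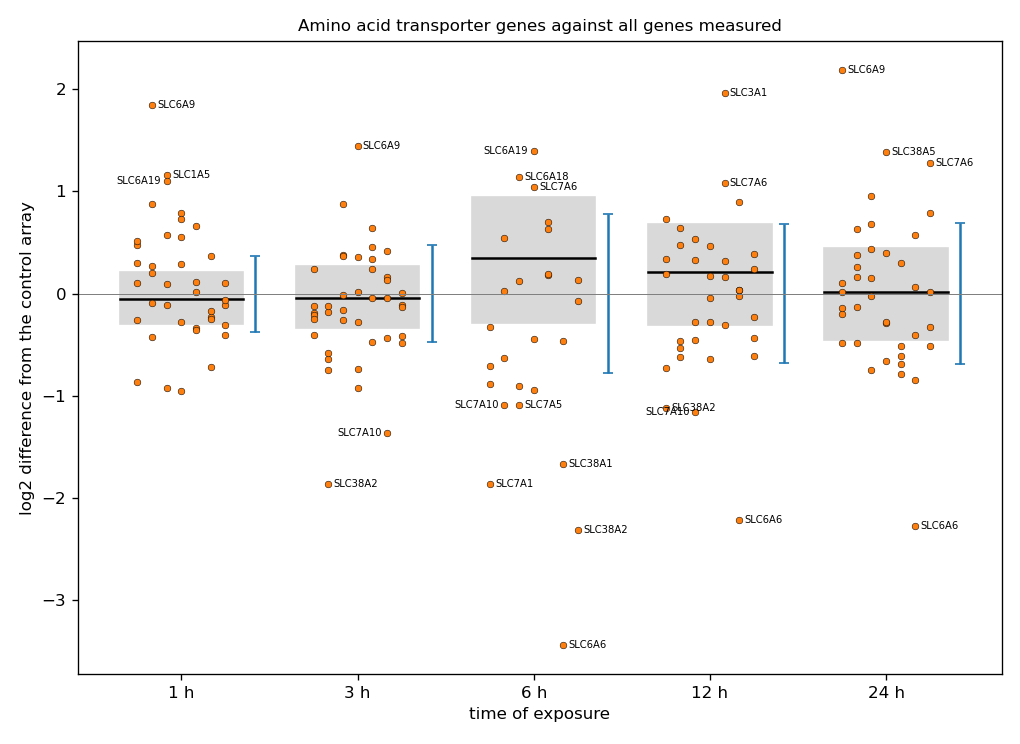
Log2 difference from the control array (vertical axis) of each measured transporter gene (orange points) at each time of exposure (horizontal axis), with genes past 2-fold named. Grey boxes span the middle quartiles of all measured genes, black lines are their medians, and blue bars are ± 1 SD of the difference of one probe; the points at 6 h lie mostly below the black line.

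At least 2-fold differences in the same direction at neighbouring times were found for 2 of 39 members on the higher side (SLC6A9 and SLC7A6), against 11.1% of all genes, and for 3 on the lower side (SLC38A2, SLC6A6 and SLC7A10), against 6.37%. Of these 5, SLC38A2 is the only one whose further probe measured at the same times repeated the difference; SLC6A9 and SLC7A10 had a single probe. All times share the one control array.

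A slope over log2(hours + 1) was fitted with limma across the 13317 genes that 3 or more arrays showed well above background, 40 of them members, with the control placed at 0 h by assumption. No member passed: 0% of all genes had an adjusted p under 0.05 in either direction, and the smallest adjusted p was 0.216. At an unadjusted p under 0.05, 1 of 40 members had a rising line, against 3.68% of all genes, and 2 had a falling line, against 6.1%. SLC7A6 had a fitted change from 0 to 24 h of 1.26 with an SE of 0.39 (limma, adjusted p = 0.388), above the control on 5 of 5 treated arrays by its brightest probe. Its slope was 0.27 there and -0.03 with the mean over probes (limma, adjusted p = 0.949), so its direction turned. SLC6A6 had -2.84 with an SE of 0.90 (limma, adjusted p = 0.39), below the control on 5 of 5. Its slope was -0.61 per unit of log2(hours + 1) and -0.16 with the mean over probes (limma, adjusted p = 0.673), and probe 2 lay above the control on 5 of 5. SLC38A4 had -2.04 with an SE of 0.63 (limma, adjusted p = 0.386), and it was not well above background on 3 of its arrays. With normexp background the slope of SLC38A4 was above 0. The fitted line had a positive slope for 16 of 40 members, or 40%, against 59.1% of all genes. SLC38A2, which was lowest in mid-course, had a fitted change of -0.57 with an SE of 0.88. Without the 6 h and 12 h arrays, a choice made after seeing the data that leaves 4 arrays, the brightest SLC6A6 probe had a limma adjusted p of 0.0102, among 597 genes called in all.

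Genes around these carriers were taken from lists of the pathway. They are given by their brightest probe under the main processing. Their other probes and the processing alternatives were not compared, and the error of one probe given above applies to them too. Of 10 genes of the amino acid starvation response, limma called 0 at an adjusted p under 0.05. At an unadjusted limma p under 0.05, 1 had a rising line, beside 3.68% of all genes. Of the 8 measured at 6 h, 1 was at least 2-fold higher and 2 lower, beside 23.2% and 10% of all genes. At 24 h 2 of 7 were higher and 0 lower, beside 7.01% and 9.54%. EIF2AK4, the kinase that senses uncharged tRNA, had differences of 0.38, 0.36, -2.31, -1.54 and -0.84 at the 5 times in order. CEBPB, a transcription factor of this response, was at -2.08 at 3 h, -2.09 at 6 h and -0.29 at 24 h. DDIT3, a stress-induced transcription factor, lay between -0.18 and -0.11 up to 6 h and at 1.76 and 1.79 at 12 h and 24 h. DDIT4, an inhibitor of mTORC1, was at -2.16 at 3 h and 1.39 at 12 h. Among 26 measured genes of amino acid sensing upstream of mTORC1, 8 were at least 2-fold higher at 6 h and 1 lower. The shares of all genes were 23.2% and 10%. At 24 h 0 of 27 were higher and 0 lower, beside 7.01% and 9.54% of all genes. LAMTOR2, part of the lysosomal anchor of mTORC1, had differences of 1.34 at 6 h and 0.54 at 24 h, and the GTPase gene RRAGC had 1.27 and 0.35. FLCN, a regulator of the same GTPases, was at 1.31 at 12 h.

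Of 34 measured genes of amino acid metabolism, 5 were at least 2-fold higher at 6 h and 8 lower, beside 23.2% and 10% of all genes. PRODH, which oxidises proline, had differences of 2.46 at 6 h and 1.74 at 12 h, and the alanine transaminase gene GPT had 2.19 and 1.23. CTH, which makes cysteine, was at -2.23 at 6 h and -0.33 at 24 h. ARG1, the liver arginase of the urea cycle, was at -2.29 at 24 h. At 24 h 3 of 35 were higher and 7 lower, beside 7.01% and 9.54% of all genes. Among 13 other amino acid and peptide carriers on the array, SLC7A11, the cystine and glutamate exchanger, was at -2.72 at 6 h and 0.60 at 24 h. Its lowest value was at 6 h, on the dimmest array, as for SLC38A1, SLC38A2, SLC7A1 and several other members. The members SLC6A18 and SLC6A19 had their highest differences there. SLC15A4, a lysosomal histidine and peptide carrier, was at -1.14 at 24 h. MFSD12 was at 1.21 at 6 h and SLC17A7, a vesicular glutamate carrier, at -0.85 at 3 h. In these last 3 lists limma called 0 genes at an adjusted p under 0.05, with 0 sensing genes, 0 other carriers and 4 metabolic genes under 0.05 before adjustment, 1 of them with a rising and 3 with a falling line of 37 tested, beside 3.68% and 6.1% of all genes.

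Promoter windows from RefSeq (GRCh38.p14), from 250 bases before to 50 after a start, were found for 40 of the 55 members, 59 windows in all. Motifs were searched on both strands by their letters. The composite site TGATGNAAN, read by ATF4 with its C/EBP partners, lay in 6 of 59 windows (10.2%) and in 3.61% of all 35116 windows. The 6 windows belonged to SLC1A3, SLC1A4, SLC1A5, SLC3A2, SLC38A1 and SLC7A1. Of the members at least 2-fold lower at 6 h, SLC38A1 and SLC7A1 had a match, SLC38A2, SLC7A5 and SLC7A10 had windows without these letters, and SLC6A6 had no window. The E-box CACGTG, read by MYC and related factors, lay in 9 windows (15.3%) against 7.26% of all. The cAMP response element TGACGTCA lay in 0 of 59 windows and in 1.85% of all. Matches are letters in a window and were not tied to binding here, and several windows belong to one gene. The stretches for SLC7A5 and SLC1A5, 2 genes of leucine and glutamine exchange that the array followed on all arrays, are shown with the matched letters in capitals and 25 bases on each side.
SLC7A5, chr16:87869607-87869662, minus strand: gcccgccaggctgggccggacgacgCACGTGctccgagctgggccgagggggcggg
SLC1A5, chr19:46784878-46784936, minus strand: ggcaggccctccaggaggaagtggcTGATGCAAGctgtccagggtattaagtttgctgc
SLC1A5, chr19:46787313-46787368, minus strand: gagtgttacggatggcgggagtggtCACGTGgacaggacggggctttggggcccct
Counted from the start, the first base of the match was at -130 for SLC7A5, and at -97 and -50 from different starts for SLC1A5.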

How the data were processed

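The deposited scanner files hold intensity per spot, per the file headers; the authors' processed signal was corrected for background and not scaled between arrays. An Agilent linear amplification kit was used for labelling, per the labels' protocols; the labels name Cy5, whereas the files hold green-channel columns. The genome build of the probes is not given in the sources used here; their coordinates are not printed. The authors' deposited value table holds linear intensity for 35646 probes. Flags of the deposited files for background, saturation and outliers were other columns used. Spots were averaged per probe on the log2 scale after 1639 control spots and 105 flagged probes were left out. Symbols came from RefSeq (GRCh38.p14, names only) for 25849 probes; all 55 members carried 1 symbol. A gene was represented by its brightest probe. Counts left out saturated genes. Slopes were tested with limma 3.58.1 in R 4.3.3, two-sided, with Benjamini-Hochberg adjustment and 4 residual degrees of freedom; the residual measures departure from the line and holds no replicate spread. Tables were made with pandas 2.3.3. In simulated data with 13317 genes the trend test recovered 1, 5, 27 and 43 of 50 genes made to change 2-, 4-, 8- and 32-fold, with 5 false calls. The simulated noise was drawn independently for each gene and array. Shifts that many genes of an array share, as at 6 h, were not in it, so these counts may not hold for the real arrays. The number of arrays limits the precision; repeated probes with 10 spots had a median SD of log2 signal between 0.063 and 0.083 per array. Members and lists were chosen with earlier results of these data known. Genes named were SLC7A5, SLC3A2, those at least 2-fold apart in one direction at neighbouring times, those with an unadjusted trend p under 0.05, and up to 4 of each list with the largest differences; other members are given by value or range. Alternatives were quantile and median scaling, normexp background, the authors' deposited values, the mean over probes, other filters, a 1.5-fold threshold, other time scales, and leaving out arrays. Some items are not reported here.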

Additional observations from a re-analysis of the deposited data

How the results depend on the processing

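Of 120 recomputed differences of single members (24 differences under 5 settings), 104 stayed within the error of a probe, 14 moved beyond it and 2 changed sign. The 2 were SLC7A10 at 6 h with normexp background (0.73) and SLC7A6 at 12 h with the mean over probes (-0.16). All 24 stayed within the error under quantile and under median scaling, and 14 of 24 did with normexp. With the mean over probes 19 of 24 did, 4 moved and 1 changed sign. A gene with 1 measured probe, such as SLC1A5 or SLC7A1, kept its value there by construction. Median scaling shifts all genes of an array by the same amount. The count of 104 therefore includes values that could not move and is no measure of stability. Counts of members moved as follows. No share over all genes is given here for the fold counts under these settings, so they cannot be read against all genes. With a 1.5-fold threshold, the counts at the 5 times in order were 7, 3, 5, 5 and 7 higher and 4, 6, 11, 7 and 7 lower. With normexp, the higher counts at the first 4 times were 1, 0, 1 and 8, with 1 at neighbouring times, and 1 member had a falling line. With the authors' deposited values, 1 member was lower at 1 h, 1 higher at 12 h, 1 higher at neighbouring times, and 1 had a falling line. With the mean over probes, 1 was higher at 12 h, 0 lower at 24 h, 1 higher at neighbouring times, 0 had a rising line and 1 a falling line. Falling lines at an unadjusted limma p under 0.05 numbered 1 of 40 with quantile scaling, beside 744 of 13317 genes. They numbered 1 of 26 with genes on all 6 arrays, beside 588 of 10553, and 0 of 40 with hours as such, beside 626 of 13317. Over all genes, falling lines numbered 334 of 13317 with normexp and 806 of 13246 with the deposited values. With the mean over probes 892 of 13322 genes had a falling and 555 a rising line. Leaving out 1 array at a time, rising lines ranged from 0 to 2 and falling lines from 0 to 4, both highest without the 24 h array and lowest without the control. Of all 13317 genes, 1611 had rising and 1109 falling lines without the 24 h array, against 141 and 489 without the control. An alternative chosen after seeing the data dropped both the 6 h and 12 h arrays. There 1 member was higher and 0 lower at neighbouring times. At an unadjusted limma p under 0.05, 3 of 40 had rising and 5 falling lines, beside 10.2% and 14.2% of all genes. Among members 1 falling line (SLC6A6) passed adjustment, beside 448 of all 13317 genes. The causes of these moves were not tested. Low signal over background at 6 h limited the members measured there to 26. No paired analysis was possible because each group held 1 array.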

Other observations

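The array files name 4 further genes of the SLC38A family by older identifiers, so the name rule did not take them. SLC38A10 had differences from the control of 1.04, 0.90 and 0.36 at 6, 12 and 24 h. SLC38A9, a lysosomal carrier that senses arginine for mTORC1, lay between -0.04 and 0.58. SLC38A7, a lysosomal glutamine carrier, lay between -0.39 and 0.11. SLC38A11 was at -0.66 at 6 h and between -0.10 and 0.30 otherwise.

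On 1 or 2 arrays only, 3 members were well above background. SLC1A3, a glutamate carrier, was well above background at 12 h, at least 3.01-fold higher than the control. SLC7A8, a neutral amino acid exchanger, was so at 1 h, at least 1.89-fold higher. SLC43A3 was so on the control array and at 3 h, where it was at 0.36, and at 24 h it was at least 1.62-fold lower while its other probe was at least 2.99-fold higher.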
